A study of Mus musculus with 14 samples.

Results

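The genes described here are the phase II conjugation enzymes of mouse liver, namely the UDP-glucuronosyltransferases (Ugt1a, Ugt2a, Ugt2b and Ugt3a), the cytosolic sulfotransferases (Sult), the glutathione S-transferases (Gsta, Gstk, Gstm, Gsto, Gstp, Gstt and Gstz) and the microsomal glutathione S-transferases (Mgst). They were taken from the deposited table by gene symbol, with pseudogenes left out, which gave 67 members among 55427 genes. Whole livers of male mice were sequenced in 14 libraries of 5 groups, and all mice carried the floxed Ager allele (Ager encodes RAGE, a receptor for advanced glycation end products, AGEs). The mice started at 8 to 10 weeks of age and stayed 14 weeks on their diet. The first group, labelled RageHepKO (n = 3), combined an albumin-driven Cre with the floxed allele, for deletion in hepatocytes, and ate a high-AGE diet (HiAD), which is a fast-food diet that was cooked. The second, HiAD + PM (n = 2), ate the same diet and was injected daily from week 5 with 60 mg per kg of pyridoxamine (PM), an inhibitor of AGE formation. The others were floxed mice on HiAD with vehicle treatment (n = 3), on the uncooked fast-food diet (FFD, n = 3) and on chow (n = 3). Both HiAD and FFD came with fructose in the drinking water.

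Phase II enzymes attach a polar group to drugs, hormones, bilirubin and bile acids, so that these can leave in bile or urine. UGTs sit in the endoplasmic reticulum and transfer glucuronic acid from UDP-glucuronic acid, SULTs transfer sulfate from PAPS in the cytosol, and GSTs join glutathione to electrophiles such as lipid peroxidation products. Hepatocytes carry most of these enzymes, and many of them differ between male and female mouse liver under the pattern of growth hormone release. The receptors AHR, CAR and PXR and the oxidative stress factor NRF2 are known inducers of their genes.

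Values are FPKM (fragments per kilobase of exon, relative to the fragments of the library), brought to 1 scale across libraries by a trimmed mean of log ratios. In each library the products of FPKM and exon length piled up at a step of 0.0853 to 0.127. If that step is 1 fragment, the libraries held about 7850000 to 11700000 fragments. The Ager level did not follow the label: it was 0.198, 1.90 and 1.83 FPKM in the libraries labelled RageHepKO, against 0.184, 0.0811 and 0.140 FPKM in HiAD livers. It was 2.49 and 2.75 FPKM in HiAD + PM livers, 2.47 to 2.78 FPKM in FFD livers and 0.801 to 2.15 FPKM in chow livers. HiAD livers, from floxed wild-type mice by the study's methods, were thus the group with the low level. Of the libraries labelled RageHepKO, replicate 19 (0.198 FPKM) was as low. The share of mitochondrial genes in all FPKM was 24.3 to 53.1% in the libraries labelled RageHepKO, against 14.1 to 22.1% in HiAD livers. A list of 10 male-biased liver genes summed to 2426 to 4531 FPKM in the libraries labelled RageHepKO, 2810 to 4496 in HiAD + PM livers, 72.6 to 629 in HiAD livers, 3324 to 3705 in FFD livers and 1299 to 5102 in chow livers, where replicate 2 was the lowest. The cholangiocyte list summed to 91.9 to 147 FPKM in HiAD livers and to 15.3 to 36.3 FPKM in all others, and most of that was Spp1, while Krt19 stayed below 1 FPKM in every library. The summed Kupffer cell markers were 46.3 to 55.6 FPKM in HiAD livers, against 125 to 526 FPKM in FFD livers. The stellate cell markers summed to 39.9 to 51.4 FPKM in HiAD livers and to 15.8 to 35.4 FPKM in all others. The part of these differences in the results below was not tested, and in whole tissue fewer cells of a type and less RNA per cell cannot be told apart.

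Of the 67 members, 52 passed a filter of at least 1 FPKM in at least 2 libraries and were tested with limma among 12110 genes. Sult2a1, Sult2a2 and Gsta1 passed it through HiAD livers alone, the group where they were highest, so their values are given below with no test and they are left out of the counts, which cover the other 49. Counts under other settings or without a library cover all members tested there. The other 15 were Ugt2a2, Sult1c1, Sult2a3, Sult2a4, Sult2a5, Sult2a6, Sult2b1, Sult3a1, Sult3a2, Sult4a1, Sult6b1, Sult6b2, Gsto2, Gstt4 and Mgst2, and 5 of them were listed at 0 in every library. The family was abundant, with 18 members at a mean of at least 100 FPKM and 33 at a mean of at least 10 FPKM. Taking the highest member of each family, Ugt1a1 led at a mean of 544 FPKM, before the mu-class transferase Gstm1 at 442, Ugt2b5 at 399 and the membrane-bound Mgst1 at 390. Other Ugt1a genes were listed at means of up to 431 FPKM (Ugt1a9).

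HiAD livers differed from FFD livers, which had the same diet uncooked, in 4 members. Gstt3 and Gstm3 rose and Gstp1 and Sult2a8 fell, 8.16% of the 49 members against 3.1% of all tested genes (adjusted p under 0.05, limma). Of all genes 1.66% were higher and 1.45% lower. The groups did not overlap for 28 of the 49 members, or 19 of the 40 outside Ugt1a, against 30.6% of all genes. The median log2 fold change was 0.01 for the members and 0.02 for all genes. With the FPKM as deposited, 1 member rose and 2 fell. All 4 calls ended when single libraries were left out. Gstp1 was lost without HiAD replicate 1 or 3 or FFD replicate 28 or 31 (adjusted p 0.066 to 0.0922), and Sult2a8 without HiAD replicate 1 or 3 or FFD replicate 28 (0.051 to 0.0648). Gstm3 was lost without any 1 of the 6 libraries (0.0862 to 0.131), and Gstt3 without any 1 but FFD replicate 28 (0.0874 to 0.159).

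Against chow, HiAD livers had 1 member higher, Mgst3, and 4 lower, Sult5a1, Ugt2b37, Gstp1 and Ugt2b38. These made 10.2% of the members, against 4.62% of all tested genes (2.81% higher and 1.82% lower). The groups did not overlap for 21 of the 49 members, or 12 of the 40 outside Ugt1a, against 25.6% of all genes. With the FPKM as deposited, 3 members rose and 3 fell. Without chow replicate 2, the chow library lowest in male-biased genes, 2 members were higher and 8 lower. Sult5a1 kept its call without any single library, while Gstp1, Ugt2b37 and Ugt2b38 lost theirs without any 1 library but chow replicate 2 (adjusted p 0.0559 to 0.152) and Mgst3 without any 1 but chow replicate 3 (0.0818 to 0.135). This comparison and the one with FFD share the HiAD libraries, so their calls are not independent. Between FFD and chow livers no member passed with limma, against 0.0661% of all genes (0.00826% higher and 0.0578% lower). There 8 members had an unadjusted p under 0.05, against 10.1% of all genes, and with sample weights 1 was higher and 5 lower. The groups did not overlap for 6 members, against 17.9% of all genes.

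In HiAD + PM livers, compared with HiAD livers, Ugt2b38, Gstp1 and Ugt2b1 rose and Sult1a1, Mgst3, Ugt1a9 and Ugt1a7c fell. That was 14.3% of the members, or 12.5% of those outside Ugt1a, against 6.45% of all tested genes. The groups did not overlap for 34 of the 49 members, or 25 of the 40 outside Ugt1a, against 50% of all genes. Only 2 HiAD + PM libraries were available, and without either of them no member passed. Mgst3 and Sult1a1 were also lost without any 1 HiAD replicate (adjusted p 0.0567 to 0.118), and Gstp1, Ugt1a9 and Ugt1a7c without HiAD replicate 1 or 3 (0.0544 to 0.14). With the FPKM as deposited, 3 members rose and 2 fell.

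The libraries labelled RageHepKO differed from HiAD livers in 26 members. There 12 rose and 14 fell, 53.1% of the members against 33.4% of all tested genes, and 32 did not overlap, against 44% of all genes. The 9 Ugt1a genes, which repeat much of 1 shared signal, were all among the 14. Ugt1a7c, at a far lower level, moved with Ugt1a1 across the libraries, so its call is not a separate one. Without the Ugt1a genes 42.5% of the other 40 members were called, and 23 of these 40 did not overlap. The counts of alternative fits that follow may hold the 3 genes left out above. HiAD livers alone admitted those 3 genes, so their falls against HiAD are no evidence. With the FPKM as deposited, which lowered the median of all genes by 0.26 on the log2 scale, 8 members rose and 20 fell. When only the 6 libraries of these groups were fitted, 8 rose and 5 fell. Gstm5, Gstp1, Gstt3, Sult2a8, Sult5a1, Ugt1a1, Ugt1a7c, Ugt2b37, Ugt3a1 and Ugt3a2 kept their calls under every alternative fit in which they were tested, although Sult5a1 was not below the stricter threshold of 0.01.

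**Figure D1:**
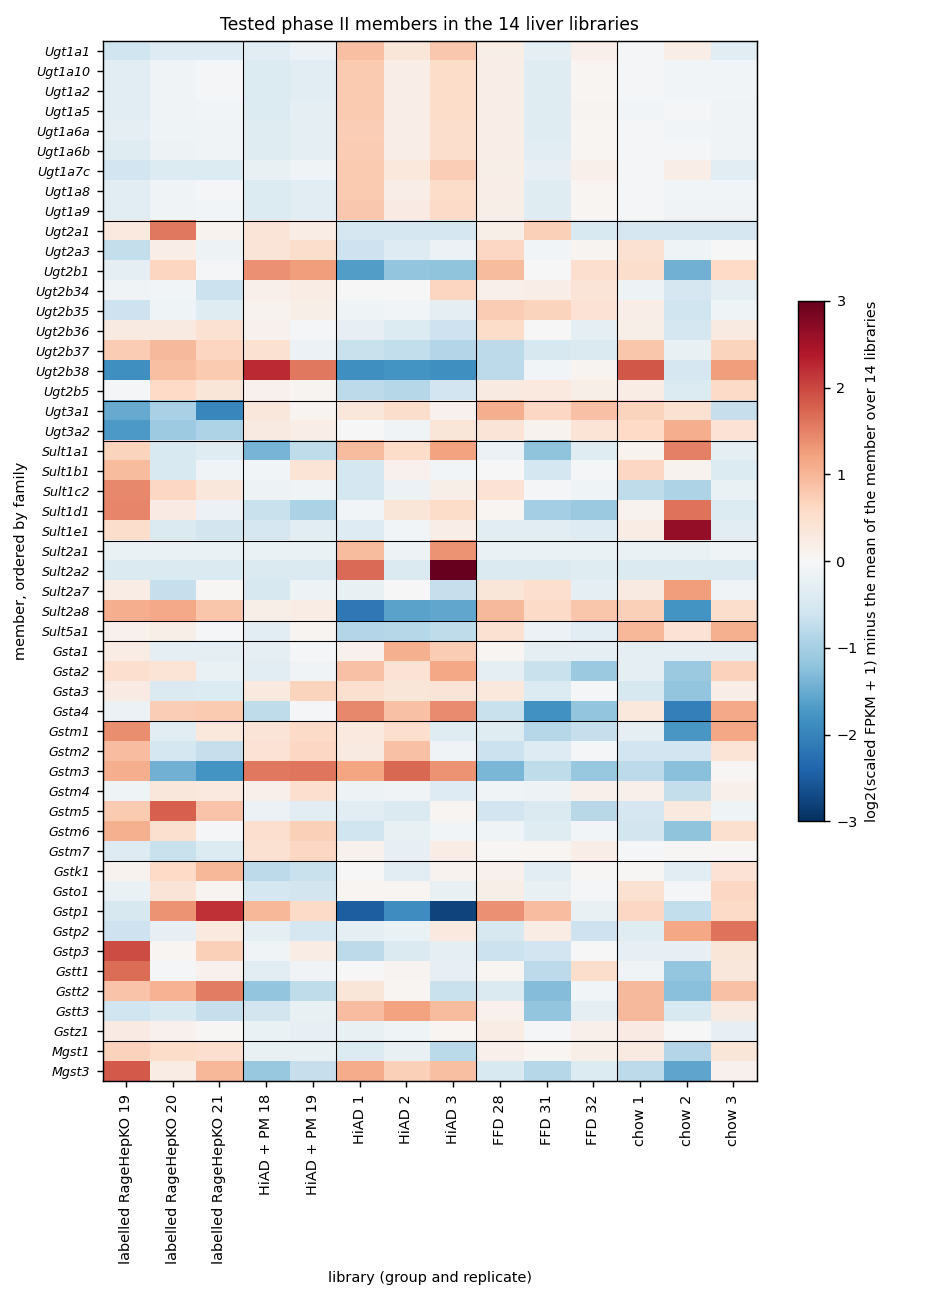
Each row is 1 of the 52 tested members and each column 1 of the 14 libraries, and the colour is log2(scaled FPKM + 1) minus the member's mean over all libraries, with lines between groups and families. The Ugt1a rows share 1 pattern with HiAD livers highest, and Gstp1, Sult2a8, Ugt2b38 and Ugt2b1 are at their lowest in HiAD livers, apart from the libraries that reach as low: chow replicate 2 for Sult2a8 and Ugt2b1, and replicate 19 labelled RageHepKO for Ugt2b38.

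**Figure D2:**
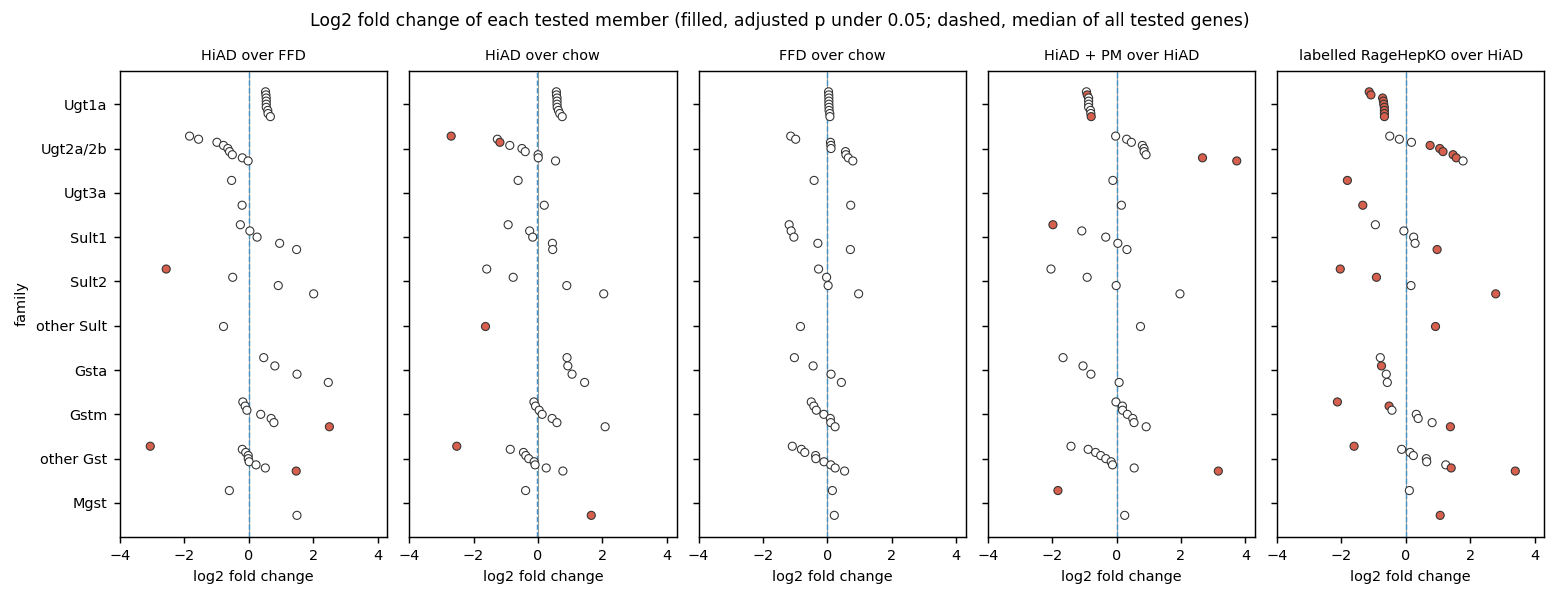
Each point is the log2 fold change of 1 tested member on the log2(scaled FPKM + 1) scale, in rows by family and in panels by comparison, filled where the adjusted p was under 0.05, and the dashed line is the median of all tested genes. Sult2a1, Sult2a2 and Gsta1, left out of the counts, are among the tested members, and a filled point of these genes is not read as a call. Ugt1a and Ugt2a/2b lie on opposite sides of 0 in the medians of 4 of the 5 panels, with the exception of FFD over chow.

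The Ugt1a genes form 1 locus on chromosome 1 (chr1:88055388-88219004, GRCm38, plus strand), in which 9 first exons, each with its own promoter, are spliced to the same 4 downstream exons. The first exon encodes the part that binds the substrate, and the common exons encode the part that binds UDP-glucuronic acid. In the annotation 1311 exon bases belong to all 9 genes, 30.4% of the exon bases of Ugt1a6a, 31.1% of those of Ugt1a7c and 55.0 to 59.9% of those of the other 7. The junctions below are shown because they are where a fragment can tell the genes apart. Each gives the last 30 bases of the gene's own first exon in lower case and the first 30 bases of the common second exon in capitals (GRCm38, plus strand). The common exon starts at base 88215044.
Ugt1a1: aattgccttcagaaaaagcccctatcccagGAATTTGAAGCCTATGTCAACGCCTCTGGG
Ugt1a2: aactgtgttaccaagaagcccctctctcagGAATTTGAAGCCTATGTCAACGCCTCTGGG
Ugt1a5: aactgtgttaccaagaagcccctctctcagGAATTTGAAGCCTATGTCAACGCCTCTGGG
Ugt1a6a: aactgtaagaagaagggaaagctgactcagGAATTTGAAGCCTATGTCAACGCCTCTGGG
Ugt1a6b: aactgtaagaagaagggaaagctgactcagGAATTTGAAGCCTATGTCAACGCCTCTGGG
Ugt1a7c: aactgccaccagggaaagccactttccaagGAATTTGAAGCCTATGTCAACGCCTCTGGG
Ugt1a8: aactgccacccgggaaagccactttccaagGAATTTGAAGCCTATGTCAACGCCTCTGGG
Ugt1a9: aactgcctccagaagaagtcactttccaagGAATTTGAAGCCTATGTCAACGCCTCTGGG
Ugt1a10: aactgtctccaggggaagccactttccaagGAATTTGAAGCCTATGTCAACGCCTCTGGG
The 9 junctions have 7 different ends on the own side, since Ugt1a2 matches Ugt1a5 and Ugt1a6a matches Ugt1a6b over these bases, and the common side is identical in all.

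Some of the listed levels stood in nearly fixed ratios to each other. The level of Ugt1a8 was 1.017 to 1.018 times that of Ugt1a10 in the 14 libraries, and the ratio of their exon lengths alone gives 1.01796. Likewise Ugt1a2 stood at 1.02451 to 1.02533 times Ugt1a10, with 1.02533 from the lengths. Ugt1a1 departed from this, at 1.04 to 1.58 times Ugt1a10 with 1.01933 from the lengths. A ratio equal to that of the lengths means nearly equal fragment numbers for both genes. How fragments of the common exons entered these values was not tested. Ugt1a7c was an exception in level, at 0.0204 to 0.0334 times Ugt1a10 with 0.537 from the lengths. Across the libraries it moved with Ugt1a1, from 6.88 FPKM beside 343 FPKM in replicate 19 labelled RageHepKO to 19.3 FPKM beside 964 FPKM in HiAD replicate 1.

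Ugt1a1, the enzyme that conjugates bilirubin, was listed at 343, 395 and 396 FPKM in the libraries labelled RageHepKO, 414 and 456 FPKM in HiAD + PM livers, 964, 663 and 902 FPKM in HiAD livers, 590, 422 and 574 FPKM in FFD livers, and 497, 592 and 411 FPKM in chow livers. Every HiAD liver was above every other library. Ugt1a1 fell in the libraries labelled RageHepKO against HiAD (log2 fold change -1.14, SE 0.23, adjusted p 0.00364, limma). Ugt1a7c fell in them as well (-1.08, SE 0.19, adjusted p 0.00177). It was listed at 6.88, 7.75 and 7.77 FPKM there, 8.99 and 9.78 FPKM in HiAD + PM livers and 19.3, 13.7 and 18.4 FPKM in HiAD livers, with 8.82 to 12.1 FPKM in FFD and 8.34 to 12.5 FPKM in chow livers. The other 7 genes had log2 fold changes of -0.72 to -0.67 in the libraries labelled RageHepKO against HiAD, and each lost its call without HiAD replicate 1 (adjusted p 0.0892 to 0.12). In HiAD + PM livers against HiAD, Ugt1a9 (-0.91, SE 0.24, adjusted p 0.0425) and Ugt1a7c (-0.79, SE 0.21, adjusted p 0.0456) passed. For HiAD against FFD all 9 had positive log2 fold changes with a median of 0.54, and none passed with limma. All 9 had an unadjusted p under 0.05, against 16.2% of all genes, but most of the 9 values repeat 1 shared signal.

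A value for the own exon of 5 of the genes (Ugt1a1, Ugt1a2, Ugt1a5, Ugt1a8 and Ugt1a9) was derived by subtracting the common part, taking Ugt1a10 as a gene that holds common fragments only. This was chosen after the values were seen and has no test. The same subtraction gave -0.65 to 0.00 FPKM for Ugt1a2 and Ugt1a8, which shows how closely the 3 genes agree. For Ugt1a1 the own-exon value was 32.3 ± 11.7 FPKM in the libraries labelled RageHepKO, 289 ± 29.7 FPKM in HiAD + PM livers (n = 2), 626 ± 140 FPKM in HiAD livers, 308 ± 53.2 FPKM in FFD livers and 282 ± 221 FPKM in chow livers (SD, n = 3 except PM). The chow livers spread from 73.0 to 513 FPKM. For Ugt1a9, a phenol-conjugating enzyme in humans, it was 1.73 ± 0.34 FPKM in the libraries labelled RageHepKO, 7.78 ± 1.12 FPKM in HiAD + PM livers, 60.5 ± 6.12 FPKM in HiAD livers, 8.19 ± 3.52 FPKM in FFD livers and 10.2 ± 3.82 FPKM in chow livers. The lowest HiAD liver had 56.3 FPKM and the highest of all other libraries 14.2 FPKM. The common exons themselves were at 619 ± 56.7 FPKM in the libraries labelled RageHepKO, 537 ± 28.8 in HiAD + PM livers, 994 ± 195 in HiAD livers, 682 ± 131 in FFD livers and 652 ± 8.55 in chow livers. The zero of the own-exon values is set by the subtraction, so their ratios between groups cannot be set against those of the listed levels. The own-exon values also did not keep pace with the common exons. In the libraries labelled RageHepKO the largest group mean of the 5 genes was 32.3 FPKM, beside 619 FPKM for the common exons. Chow replicate 3 had 73.0 FPKM for Ugt1a1 beside 647 FPKM. The reason was not tested, so a low own-exon value is not read as fewer transcripts of that gene.

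**Figure D3:**
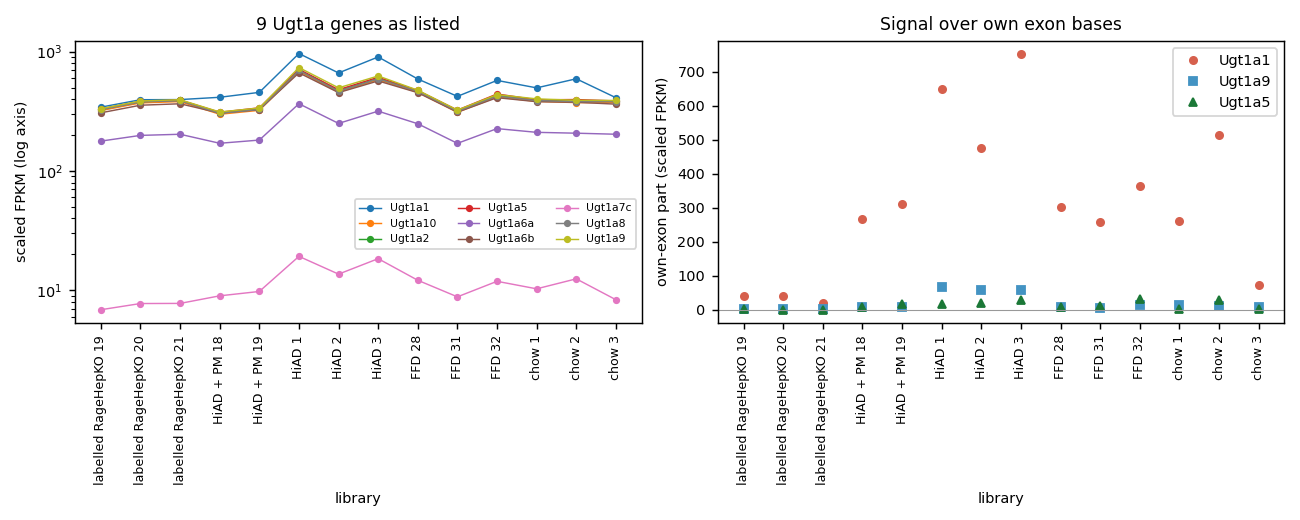
Left, the listed level of the 9 Ugt1a genes in each library (scaled FPKM, log axis); right, the signal over the own first exon of Ugt1a1, Ugt1a9 and Ugt1a5 (scaled FPKM, linear axis), derived by subtraction. Most lines on the left coincide, while on the right Ugt1a9 lies at 56.3 to 67.5 FPKM in the 3 HiAD livers and at 14.2 FPKM or less elsewhere.

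The Ugt2b genes lie together on chromosome 5 and encode enzymes for steroids, bile acids and drugs, each from a full set of exons of its own. The medians of the family ran opposite to Ugt1a. The median log2 fold change of the 9 tested Ugt2a and Ugt2b genes was 1.05 in the libraries labelled RageHepKO and 0.85 in HiAD + PM livers, both against HiAD, and -0.65 for HiAD against FFD and -0.50 for HiAD against chow. The summed level was 948 to 1343 FPKM in the libraries labelled RageHepKO, 1315 to 1365 FPKM in HiAD + PM livers, 675 to 785 FPKM in HiAD livers, 1144 to 1421 FPKM in FFD livers and 696 to 1300 FPKM in chow livers. HiAD livers overlapped only with chow replicate 2 in this sum.

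Ugt2b1 was at 121, 232 and 143 FPKM in the libraries labelled RageHepKO, 380 and 353 FPKM in HiAD + PM livers, 45.3, 63.9 and 63.6 FPKM in HiAD livers, 285, 148 and 208 FPKM in FFD livers and 214, 54.1 and 225 FPKM in chow livers. HiAD + PM livers were above all other libraries. Ugt2b1 rose in HiAD + PM livers 6.37-fold over HiAD (log2 fold change 2.67, SE 0.52, adjusted p 0.0102), with an adjusted p of 0.0951 without replicate 18 and 0.105 without replicate 19. In the libraries labelled RageHepKO it rose 2.87-fold (1.46, SE 0.47, adjusted p 0.0307), a call lost without any 1 library but replicate 19 (0.0536 to 0.0967). For HiAD against FFD its log2 fold change was -1.84 (adjusted p 0.0557).

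Ugt2b38 was listed at 0, 5.70 and 5.12 FPKM in the libraries labelled RageHepKO, 15.8 and 9.65 FPKM in HiAD + PM livers, 0, 0.0229 and 0 FPKM in HiAD livers, 1.07, 2.35 and 2.78 FPKM in FFD livers and 12, 1.5 and 7.55 FPKM in chow livers. It was thus at or near 0 in all HiAD livers and in 1 library labelled RageHepKO. It rose in HiAD + PM livers against HiAD (log2 fold change 3.73 on the log2(FPKM + 1) scale, SE 0.77, adjusted p 0.0137) and fell in HiAD against chow (-2.70, SE 0.69, adjusted p 0.0449). For the libraries labelled RageHepKO against HiAD the groups overlapped (1.78, adjusted p 0.0644). In its annotated transcripts 24.2% of the 100-base words also occur in another gene, most of them in Ugt2b5.

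Ugt2b37 was at 2.69, 3.27 and 2.41 FPKM in the libraries labelled RageHepKO, 1.99 and 0.933 FPKM in HiAD + PM livers, 0.356, 0.298 and 0.184 FPKM in HiAD livers, 0.262, 0.552 and 0.615 FPKM in FFD livers and 2.86, 0.852 and 2.42 FPKM in chow livers. Unlike Ugt2b1 and Ugt2b38, it was also low in FFD livers, which overlapped with HiAD livers. It rose in the libraries labelled RageHepKO against HiAD (log2 fold change 1.56, SE 0.26, adjusted p 0.00139) and fell in HiAD against chow (-1.18, SE 0.26, adjusted p 0.0221). Ugt2b5, the most abundant of the family, was at 368, 573 and 490 FPKM in the libraries labelled RageHepKO, 417 and 402 FPKM in HiAD + PM livers, 219, 208 and 254 FPKM in HiAD livers, 456, 463 and 432 FPKM in FFD livers and 444, 286 and 570 FPKM in chow livers. Each HiAD liver was below every other library, and the increase in the libraries labelled RageHepKO was 2.10-fold (1.05, SE 0.26, adjusted p 0.00935), with an adjusted p of 0.113 for the FPKM as deposited.

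Ugt2b36 and Ugt2a1 of the same family also rose in the libraries labelled RageHepKO. Ugt2b36 rose by a log2 fold change of 0.75 (adjusted p 0.041), lost without any 1 of the 6 libraries (0.0566 to 0.13). Ugt2a1 was listed at 0 in every HiAD and every chow liver, at 0.720, 3.21 and 0.519 FPKM in the libraries labelled RageHepKO, 0.837 and 0.650 FPKM in HiAD + PM livers and 0.603, 1.33 and 0.0362 FPKM in FFD livers. It passed for the libraries labelled RageHepKO (adjusted p 0.0283), and was lost without any 1 HiAD replicate (0.0649 to 0.0697). Only replicate 20 labelled RageHepKO and FFD replicate 31 held Ugt2a1 at 1 FPKM or more. Without replicate 20, or with the 2 groups alone, it missed the filter, so its call was not tested there. Most of its reads may not be separable from those of Ugt2a2, which holds most of the 94.9% of its 100-base words that occur in another gene. Ugt2a3, Ugt2b34 and Ugt2b35 passed in no comparison of the main fit. With sample weights Ugt2b35 was lower in HiAD than in FFD livers (adjusted p 0.0113, limma). Under the same setting Ugt2a3 was higher in HiAD + PM than in HiAD livers (0.0041). With the FPKM as deposited Ugt2b34 was lower in the libraries labelled RageHepKO than in HiAD livers (0.0119).

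Both Ugt3a genes, which in humans encode enzymes that use other sugar donors than glucuronic acid, fell in the libraries labelled RageHepKO. Ugt3a1 was at 0.763, 1.56 and 0.303 FPKM there, 5.41 and 4.37 FPKM in HiAD + PM livers, 5.40, 6.25 and 4.54 FPKM in HiAD livers, 9.75, 6.77 and 8.34 FPKM in FFD livers and 7.07, 5.89 and 2.10 FPKM in chow livers. Ugt3a2 was at 31.8, 49.7 and 55.8 FPKM in the libraries labelled RageHepKO, 129 and 124 FPKM in HiAD + PM livers, 107, 100 and 138 FPKM in HiAD livers, 140, 115 and 143 FPKM in FFD livers and 162, 231 and 145 FPKM in chow livers. For both genes the 3 libraries labelled RageHepKO were below all 11 others. Against HiAD the log2 fold change was -1.82 for Ugt3a1 (SE 0.33, adjusted p 0.00209) and -1.34 for Ugt3a2 (SE 0.25, adjusted p 0.00236). Neither passed in the other comparisons of the main fit. With sample weights Ugt3a2 was lower in HiAD than in chow livers (adjusted p 0.0166, limma). For HiAD + PM against HiAD the median of the family was 0.02.

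Among sulfotransferases, Sult2a8, known in mouse liver for the sulfation of bile acids, was at 242, 251 and 202 FPKM in the libraries labelled RageHepKO, 128 and 132 FPKM in HiAD + PM livers, 24.9, 36.6 and 37.9 FPKM in HiAD livers, 223, 170 and 204 FPKM in FFD livers and 188, 32.3 and 164 FPKM in chow livers. HiAD livers were below all others but chow replicate 2, whose level lay among theirs. In HiAD against FFD livers the gene fell 6.0-fold (log2 fold change -2.56, SE 0.50, adjusted p 0.0145), and in the libraries labelled RageHepKO it rose 7.0-fold over HiAD (2.79, SE 0.50, adjusted p 0.00189). In HiAD + PM livers against HiAD the log2 fold change was 1.97 (adjusted p 0.0542), and for HiAD against chow it was -1.59 (adjusted p 0.0906). The latter became -2.39 without chow replicate 2 (adjusted p 0.000172, limma) and -2.34 with sample weights (adjusted p 0.000242, limma).

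The other Sult2 genes were low. Sult2a1 and Sult2a2, hydroxysteroid sulfotransferases that are higher in females in mouse liver, were listed at 0 in all libraries labelled RageHepKO and all HiAD + PM livers. In HiAD livers Sult2a1 had 1.21, 0.0424 and 1.90 FPKM and Sult2a2 had 3.38, 0 and 14.8 FPKM, so that both were at or near 0 in HiAD replicate 2. In FFD and chow livers both were at 0 to 0.0514 FPKM. Sult2a7 passed in no comparison.

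Sult1a1, the main phenol sulfotransferase of liver, was at 143, 64.4 and 69.7 FPKM in the libraries labelled RageHepKO, 33.5 and 52.1 FPKM in HiAD + PM livers, 173, 131 and 207 FPKM in HiAD livers, 78.4, 38.2 and 69.2 FPKM in FFD livers and 96.5, 257 and 74.1 FPKM in chow livers. HiAD livers did not overlap with FFD or HiAD + PM livers, while chow replicate 2 was above all libraries. The gene fell 3.98-fold in HiAD + PM livers against HiAD (log2 fold change -1.98, SE 0.51, adjusted p 0.0381), and for HiAD against FFD its log2 fold change was 1.48 (adjusted p 0.113). The estrogen sulfotransferase Sult1e1 was at 8.07 FPKM in chow replicate 2 and at 0 to 1.12 FPKM in the other 13 libraries. Sult1c2 rose in the libraries labelled RageHepKO against HiAD (0.97, SE 0.30, adjusted p 0.0247), with 0.0612 to 0.0916 without HiAD replicate 1 or 2 or replicate 19 labelled RageHepKO. Sult1b1 and Sult1d1, which sulfates catecholamines in mice, passed in no comparison of the main fit. With sample weights Sult1d1 was lower in HiAD + PM than in HiAD livers (adjusted p 0.0317, limma).

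Sult5a1 was at 1.04, 1.10 and 0.834 FPKM in the libraries labelled RageHepKO, 0.510 and 0.987 FPKM in HiAD + PM livers, 0.0257, 0.0393 and 0.102 FPKM in HiAD livers, 1.59, 0.655 and 0.483 FPKM in FFD livers and 2.72, 1.53 and 2.90 FPKM in chow livers. HiAD livers were below all 11 others, although the level was low throughout. In units of the step described above, HiAD livers held 1.13, 2.0 and 4.49 fragments of the gene and the other libraries 22.9 to 125 fragments. It fell 42.9-fold in HiAD against chow (log2 fold change -1.66 on the log2(FPKM + 1) scale, SE 0.23, adjusted p 0.00183) and rose 17.9-fold in the libraries labelled RageHepKO over HiAD (0.91, SE 0.23, adjusted p 0.0111). The log2 values are smaller than these ratios of means, since the pseudocount of 1 FPKM is above the level in HiAD livers.

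**Figure D4:**
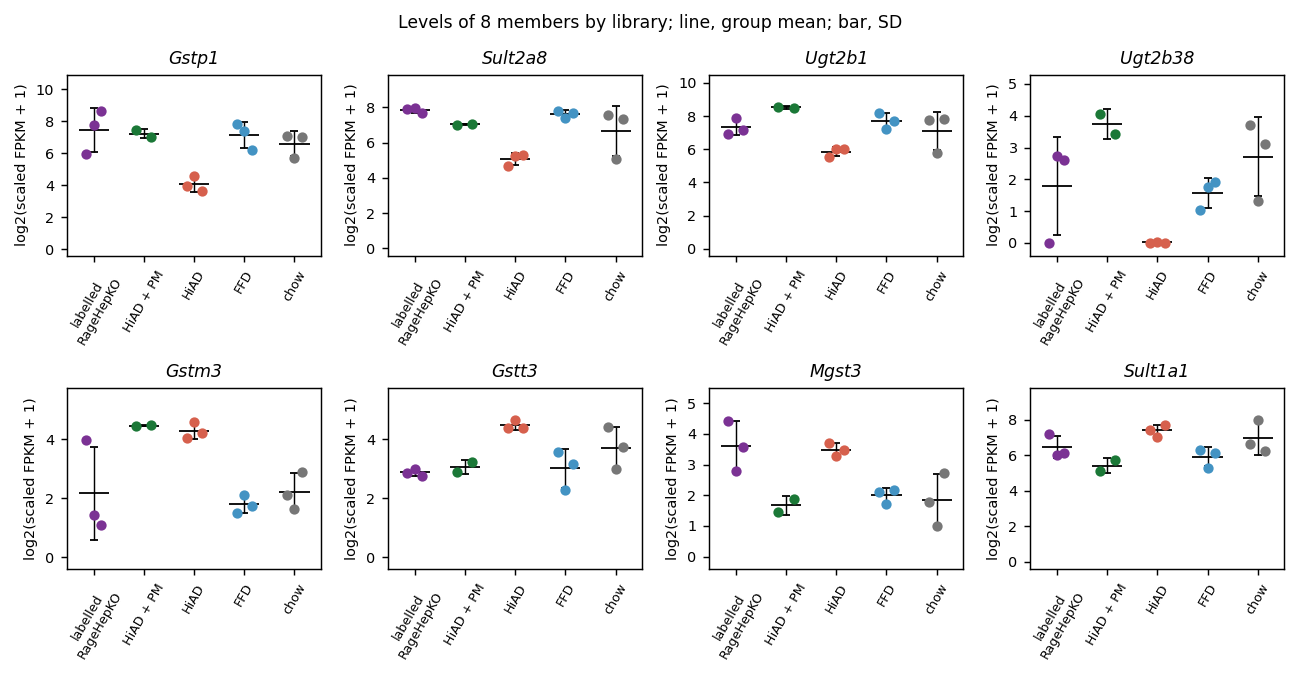
Each point is 1 library, with the group mean (line) and SD (bar), on a log2(scaled FPKM + 1) axis, for 8 members. HiAD livers are lowest for Gstp1 and, together with chow replicate 2, for Sult2a8, and Gstm3 in HiAD + PM livers (20.9 and 21.4 FPKM) lies within the range of HiAD livers.

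Of the glutathione transferases, Gstp1 changed in 4 of the 5 comparisons. This pi-class enzyme, which is higher in males in mouse liver, was at 60.9, 219 and 397 FPKM in the libraries labelled RageHepKO, 171 and 128 FPKM in HiAD + PM livers, 14.6, 22.8 and 11.6 FPKM in HiAD livers, 222, 162 and 73.0 FPKM in FFD livers and 132, 50.7 and 128 FPKM in chow livers. All HiAD livers were below all other libraries. Gstp1 rose 13.9-fold in the libraries labelled RageHepKO (log2 fold change 3.40, SE 0.62, adjusted p 0.00216) and 9.17-fold in HiAD + PM livers (3.16, SE 0.69, adjusted p 0.0182), both over HiAD. It fell in HiAD livers against FFD (-3.06, SE 0.62, adjusted p 0.0193) and against chow (-2.52, SE 0.62, adjusted p 0.0378). These 4 comparisons share the HiAD libraries. Of its 100-base words 25.1% occur in another gene, mainly Gstp2, which was at 0.181 to 4.59 FPKM. Gstp3 rose in the libraries labelled RageHepKO, at 16.9, 3.83 and 6.59 FPKM, against 1.67, 2.44 and 2.84 FPKM in HiAD livers (1.41, SE 0.39, adjusted p 0.0158, and 0.0558 without HiAD replicate 1). It was at 3.27 and 4.37 FPKM in HiAD + PM livers, 1.97 to 3.63 FPKM in FFD livers and 2.88 to 4.98 FPKM in chow livers.

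Gstm3, of the mu class, followed another pattern. It was at 14.8, 1.72 and 1.11 FPKM in the libraries labelled RageHepKO, 20.9 and 21.4 FPKM in HiAD + PM livers, 15.6, 23.2 and 17.6 FPKM in HiAD livers, 1.86, 3.33 and 2.33 FPKM in FFD livers and 3.28, 2.07 and 6.50 FPKM in chow livers. HiAD livers were 7.50-fold above FFD livers (log2 fold change 2.50, SE 0.59, adjusted p 0.0384), and HiAD + PM livers stayed near HiAD livers (0.18, adjusted p 0.923). In the libraries labelled RageHepKO the gene fell against HiAD (-2.13, SE 0.59, adjusted p 0.0161), although replicate 19 was close to HiAD livers, and the call was lost without replicate 20 or 21 or HiAD replicate 2 (0.0529 to 0.0614). Gstm5 rose 4.10-fold in the libraries labelled RageHepKO (1.38, SE 0.28, adjusted p 0.00345), and Gstm7 fell (-0.52, SE 0.16, adjusted p 0.0289, lost without HiAD replicate 1 or 3 or replicate 20, 0.0854 to 0.0897). Gstm1, the most abundant glutathione transferase, was at 1012, 306 and 476 FPKM in the libraries labelled RageHepKO, 499 and 567 FPKM in HiAD + PM livers, 469, 540 and 296 FPKM in HiAD livers, 295, 210 and 238 FPKM in FFD livers and 316, 112 and 848 FPKM in chow livers. Gstm1, Gstm2, Gstm4 and Gstm6 passed in no comparison of the main fit. With sample weights Gstm2 was higher in HiAD than in chow livers (adjusted p 0.0237, limma). Under the same setting Gstm4 (0.044) and Gstm6 (0.0069) were higher in HiAD + PM than in HiAD livers.

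The alpha-class genes act on lipid peroxidation products and other electrophiles. Gsta2, Gsta3 and Gsta4 all had positive log2 fold changes in HiAD livers against FFD and against chow, with medians of 1.5 and 1.05. None of the 3 passed with limma, where 2 against FFD and 3 against chow had an unadjusted p under 0.05. With sample weights Gsta2 (adjusted p 0.00822) and Gsta4 (0.00405) passed against FFD, and Gsta2 (0.0334) and Gsta3 (0.016) against chow. With the compared groups alone, Gsta2 (0.0271) and Gsta4 (0.00823) passed against FFD. Gsta4, which conjugates 4-hydroxynonenal, was at 4.57, 9.48 and 9.71 FPKM in the libraries labelled RageHepKO, 2.67 and 4.97 FPKM in HiAD + PM livers, 16.1, 10.5 and 15.6 FPKM in HiAD livers, 2.95, 0.768 and 1.76 FPKM in FFD livers and 6.84, 0.509 and 12.6 FPKM in chow livers. The log2 fold change for HiAD against FFD was 2.47 (adjusted p 0.0588), and it was 1.5 for Gsta2 (adjusted p 0.0593). Gsta3, which detoxifies aflatoxin in mice and was the most abundant of the class, was at 60.04, 36.9 and 37.2 FPKM in the libraries labelled RageHepKO, 61.9 and 80.7 FPKM in HiAD + PM livers, 70.2, 64.5 and 66.2 FPKM in HiAD livers, 63.0, 37.3 and 47.7 FPKM in FFD livers and 35.6, 21.6 and 57.5 FPKM in chow livers. Each HiAD liver was above each FFD and chow liver, with adjusted p-values above 0.05. Gsta1 was at 1.53 FPKM or less throughout, with 80.6% of its 100-base words in other genes.

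Gstt3, of the theta class, was at 6.22, 7.03 and 5.76 FPKM in the libraries labelled RageHepKO, 6.42 and 8.41 FPKM in HiAD + PM livers, 19.8, 24.4 and 20.1 FPKM in HiAD livers, 11.0, 3.82 and 8.02 FPKM in FFD livers and 20.4, 6.92 and 12.2 FPKM in chow livers. HiAD livers overlapped with chow livers but with no other group. It was 2.81-fold higher in HiAD than in FFD livers (log2 fold change 1.47, SE 0.35, adjusted p 0.0418) and fell 3.38-fold in the libraries labelled RageHepKO against HiAD (-1.61, SE 0.35, adjusted p 0.00523). In HiAD + PM livers against HiAD its log2 fold change was -1.42 (adjusted p 0.0522). Gstt1, Gstt2, Gstk1, Gsto1, Gstp2 and Gstz1, which takes part in the breakdown of tyrosine, passed in no comparison of the main fit. Under alternative settings Gstt2, Gstk1, Gsto1 and Gstp2 did pass. With sample weights, for example, Gstt2 (adjusted p 0.0433, limma), Gstk1 (0.021) and Gsto1 (0.0088) were lower in HiAD + PM than in HiAD livers.

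The microsomal enzymes Mgst1 and Mgst3 differed in level and in pattern. Mgst1 was at 602, 548 and 526 FPKM in the libraries labelled RageHepKO, 318 and 316 FPKM in HiAD + PM livers, 281, 320 and 210 FPKM in HiAD livers, 413, 384 and 419 FPKM in FFD livers and 444, 201 and 475 FPKM in chow livers. The libraries labelled RageHepKO were above all others, 2.07-fold over HiAD (log2 fold change 1.06, SE 0.30, adjusted p 0.0168), with an adjusted p of 0.0716 without HiAD replicate 3 and 0.14 for the FPKM as deposited. Mgst3, which in humans takes part in making leukotriene C4, was at 20.3, 5.93 and 10.9 FPKM in the libraries labelled RageHepKO, 1.72 and 2.71 FPKM in HiAD + PM livers, 12, 8.77 and 10.1 FPKM in HiAD livers, 3.31, 2.27 and 3.47 FPKM in FFD livers and 2.47, 0.998 and 5.57 FPKM in chow livers. HiAD livers were above the FFD, chow and HiAD + PM livers and lay within the range of the libraries labelled RageHepKO. Mgst3 was 3.42-fold higher in HiAD than in chow livers (1.65, SE 0.42, adjusted p 0.0448) and fell 4.65-fold in HiAD + PM livers against HiAD (-1.82, SE 0.47, adjusted p 0.0388). For HiAD against FFD its log2 fold change was 1.5 (adjusted p 0.0827).

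**Figure D5:**
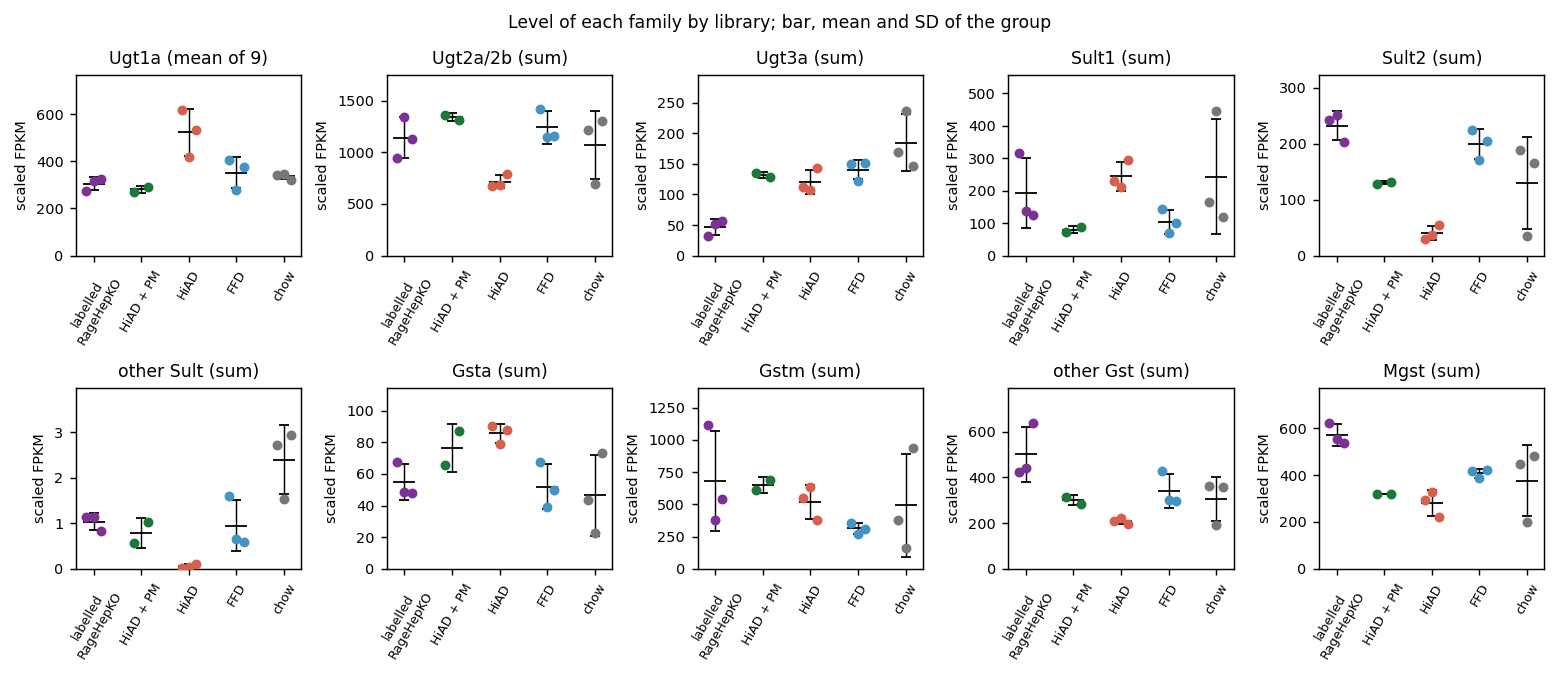
Level of each of the 10 families by library (scaled FPKM, axes from 0), as the mean of the 9 Ugt1a genes and as the sum of the members otherwise, with bars for the mean and SD of each group. Sult2 sums are 30.2 to 54.8 FPKM in HiAD livers and 171 to 224 FPKM in FFD livers, while Gsta sums are 79.0 to 90.4 FPKM in HiAD livers and 38.8 to 67.4 FPKM in FFD livers.

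The families thus did not move as 1 set. In the libraries labelled RageHepKO against HiAD, 9 of 9 Ugt1a and 2 of 2 Ugt3a genes fell. There 5 of 9 Ugt2a and Ugt2b genes rose, among them Ugt2a1, which could not be tested without replicate 20. Among 21 glutathione transferases 4 rose and 3 fell. The background for a given direction was 15.7% of all genes higher and 17.7% lower. In HiAD + PM livers against HiAD, 2 of 9 Ugt1a genes fell and 2 of 9 Ugt2a and Ugt2b genes rose, with 3.14% of all genes lower and 3.31% higher. The summed male-biased genes, mentioned above, were higher in the same contrasts: 10 of 10 rose in the libraries labelled RageHepKO and 9 of 10 in HiAD + PM livers, and 8 of 10 fell in HiAD against FFD. Of 5 tested female-biased genes, 4 fell in HiAD + PM livers, and 4 fell and 1 rose in the libraries labelled RageHepKO. The female-biased list summed to 42.8 to 193 FPKM in the libraries labelled RageHepKO, 1.95 to 2.02 FPKM in HiAD + PM livers and 54.0 to 114 FPKM in HiAD livers. The part of the sex-biased genes in the changes of Ugt2b1, Ugt2b38, Gstp1 and Sult2a8 was not tested.

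Of 16 listed genes that supply the cofactors for conjugation, 14 were tested. In HiAD livers 1 was higher than in FFD livers (7.14%, against 3.1% of all genes) and 1 higher than in chow livers (7.14%, against 4.62%). In HiAD + PM livers 1 rose and 1 fell (14.3%, against 6.45%). In the libraries labelled RageHepKO 2 rose and 4 fell (42.9%, against 33.4% of all genes). Impad1, a phosphatase of the Golgi that clears the by-product of sulfation there, was higher in HiAD livers than in FFD livers (log2 fold change 1.04, adjusted p 0.0359) and chow livers (1.41, adjusted p 0.00591). It fell in HiAD + PM livers (-1.22, adjusted p 0.0173) and in the libraries labelled RageHepKO (-2.31, adjusted p 0.000139), both against HiAD. Ugp2, which makes UDP-glucose, rose in both (1.0, adjusted p 0.0284, with PM and 0.86, adjusted p 0.0101, in the libraries labelled RageHepKO). In the libraries labelled RageHepKO, Ugdh, which makes UDP-glucuronic acid, also rose (0.82, adjusted p 0.047), and the PAPS synthase Papss2 (-0.75), the phosphatase Bpnt1 (-1.26) and the UDP-sugar transporter Slc35d1 (-0.66) fell. Of the genes of glutathione synthesis and recycling on the list, Gclc, Gclm, Gss and Gsr passed in no comparison. Ggt1 and Slc7a11 missed the filter and were not tested.

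Of 12 other conjugating enzymes, all tested, none passed in HiAD livers against FFD or chow with limma, where 2 and 5 had an unadjusted p under 0.05. In HiAD + PM livers 1 rose and 1 fell and in the libraries labelled RageHepKO 3 rose, both against HiAD, and those reported here are the following. The arsenic methyltransferase As3mt fell in HiAD + PM livers (-1.37, adjusted p 0.038), and the glycine conjugating Glyat (1.47) and the thiopurine methyltransferase Tpmt (1.16) rose in the libraries labelled RageHepKO. Among 11 tested target genes of the regulators outside the phase II families, 3 were higher in HiAD than in FFD livers and 1 higher than in chow livers, 1 rose and 4 fell in HiAD + PM livers, and 1 rose and 5 fell in the libraries labelled RageHepKO. In that order these were 27.3%, 9.09%, 45.5% and 54.5% of the 11, against 3.1%, 4.62%, 6.45% and 33.4% of all tested genes. Nqo1, a target of NRF2, was higher in HiAD than in FFD livers (1.59, adjusted p 0.00268) and chow livers (1.22, adjusted p 0.0102). It fell in HiAD + PM livers (-2.05, adjusted p 0.000626) and in the libraries labelled RageHepKO (-1.19, adjusted p 0.0027). Cyp3a11, a target of PXR, was higher in HiAD than in FFD livers (3.89, adjusted p 0.00376) and fell in HiAD + PM livers (-3.65, adjusted p 0.00734) and in the libraries labelled RageHepKO (-2.55, adjusted p 0.00747). Other targets of NRF2 did not share the pattern of Nqo1 between HiAD and FFD. Txnrd1 was at 5.13 to 6.38 FPKM in HiAD livers and 6.94 to 8.13 FPKM in FFD livers, Hmox1 at 6.07 to 10.7 FPKM in HiAD livers and 11.6 to 52.1 FPKM in FFD livers, and Srxn1 at 34.5 to 45.1 FPKM in HiAD livers and 33.8 to 40.8 FPKM in FFD livers, and none of these passed. Cyp4a14, a target of PPAR alpha, was at 48.2 and 64.4 FPKM in HiAD + PM livers, against 3505 to 5654 FPKM in HiAD livers (-6.29, adjusted p 0.000626). Cyp1a2, another of the 11 targets, went the other way. It was at 46.6 to 105 FPKM in HiAD livers and at 309 and 292 FPKM in HiAD + PM livers. In the libraries labelled RageHepKO it was at 234 to 266 FPKM.

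Of 14 tested regulators, Ghr, the growth hormone receptor, was lower in HiAD than in FFD livers (-0.83, adjusted p 0.0228) and rose in HiAD + PM livers (1.39, adjusted p 0.00143). Ppara was higher in HiAD than in chow livers (0.96, adjusted p 0.0311). In the libraries labelled RageHepKO, Nr1i3, which encodes CAR (1.99), and the bile acid receptor Nr1h4 (1.36) rose, and Hnf4a (-1.30), Ppara (-1.07), Rxra (-0.92) and Keap1 (-0.75), the inhibitor of NRF2, fell against HiAD. The called regulators were 42.9% of the 14 there, against 33.4% of all tested genes. They were 7.14% in HiAD against FFD, in HiAD against chow and with PM, against 3.1%, 4.62% and 6.45% of all tested genes.

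Promoter windows of 300 bases around the annotated start (RefSeq, GRCm38.p6) were found for 59 of the 67 members, 71 windows in all. They were searched on both strands for the element of NRF2 (TGACNNNGC), the element of AHR (GCGTG) and the element of STAT5 (TTCNNNGAA). The NRF2 element occurred in 5.63% of the member windows, against 12.4% of 32851 windows of all genes, the AHR element in 19.7%, against 32.4%, and the STAT5 element in 8.45%, against 8.3%. The 4 members with the NRF2 letters are shown because glutathione transferases are textbook targets of that factor. Capitals mark the match, each sequence reads in the direction of its gene, and in Mgst1 the match is on the opposite strand.
Gsta3: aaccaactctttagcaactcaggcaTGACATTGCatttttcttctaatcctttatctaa
Gstm5: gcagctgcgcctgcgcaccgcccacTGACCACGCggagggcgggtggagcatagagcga
Gstm7: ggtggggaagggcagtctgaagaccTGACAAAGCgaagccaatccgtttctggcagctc
Mgst1: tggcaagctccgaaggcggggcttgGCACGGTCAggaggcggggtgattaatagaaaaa
They lie at chr1:21240439-21240497 (Gsta3), chr3:107895787-107895845 (Gstm5), chr3:107931710-107931768 (Gstm7, minus strand) and chr6:138140446-138140504 (Mgst1). As given above, Gstm5 and Mgst1 rose and Gstm7 fell in the libraries labelled RageHepKO, and Gsta3 passed in no comparison of the main fit.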

How the data were processed

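RNA of snap-frozen livers was sequenced by the study in 14 libraries, with paired-end reads and GENCODE M18 on GRCm38, per its methods. Although its name speaks of raw counts, the table held values that are not whole, and their products with exon length summed to 901152 to 993429 in each library, so they were read as FPKM that the authors deposited. How the authors counted fragments that several genes share is not stated. Entries with names turned into dates (27) and identical repeats (129) were removed.

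Libraries were brought to 1 scale with log ratios of 6522 genes at 1 FPKM or more throughout, trimming 30% at each end. The 12110 genes reaching 1 FPKM in at least 2 libraries entered limma 3.58.1 (R 4.3.3) as log2(scaled FPKM + 1), with intensity trend and robust variance, in 1 fit of the 5 group means. P-values were adjusted by Benjamini-Hochberg over all 12110 genes, and fold changes on this scale understate those of low genes. The fit was also run on simulated data with normal noise of equal spread in all groups. These libraries do not meet that setting, so no support is drawn from it. All 14 columns were matched to samples by name. Depth is known only from the step in low values, which 39.1 to 47.2% of low values met within 0.05 steps (10% by chance). Replicates are separate mice, and 2 HiAD + PM libraries were analysed.

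Exon bases came from GENCODE M21 on the same build, promoters from RefSeq. Members and lists were chosen with earlier results of these data known. Genes were named with all values where they were the up to 8 largest passing, non-overlapping changes of a comparison or the highest member of a family; others, such as Gsta4, Ugt2a1 and Sult2a1, were added after their values were seen. Same-numbered chow and HiAD libraries deviated with correlations of 0.04, -0.09 and -0.05, so they were not treated as pairs. Alternatives changed the pseudocount, filter, scaling, variance model, threshold, weights and the libraries fitted. A gene on the list of other conjugating enzymes is not reported here.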

Additional observations from a re-analysis of the deposited data

How the results depend on the processing

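Repeated tests were counted for the 24 largest passing, non-overlapping changes alone, and 317 of 446 kept their call. None reversed its direction, but changes picked this way could hardly reverse, so nothing is concluded from that. The 446 include the looser setting of an unadjusted p under 0.05, under which no call could be lost (24 of 24 kept). Other genes given above are not in this count. The counts of members called, which here cover all tested members, moved with many settings, and the cause was not tested. With no filter, 0 members were higher and 0 lower in HiAD against FFD, 0 and 1 against chow, 0 were lower with PM, and 7 were higher and 10 lower in the libraries labelled RageHepKO. With sample weights, 7 were higher and 7 lower against FFD, 9 and 11 against chow, 1 and 5 in FFD against chow, 12 and 19 with PM, and 6 were lower in the libraries labelled RageHepKO. With the 2 compared groups fitted alone, 6 were higher and 6 lower against FFD, 2 were lower against chow, 7 were higher and 9 lower with PM, and 5 were lower in the libraries labelled RageHepKO. With a pseudocount of 0.1, 1 was higher against FFD, 0 against chow and 5 with PM. With FPKM as deposited, 1 was higher against FFD, 3 against chow, 8 in the libraries labelled RageHepKO and 2 were lower with PM. With the median of ratios, 1 was higher against FFD and 2 were lower with PM. With a filter on the mean, 10 were lower with PM, and without trend and robust variance 2 were higher against chow and 11 lower with PM. Without the libraries labelled RageHepKO, 1 was higher against FFD and 2 against chow. At an adjusted p of 0.01, 0 were higher and 0 lower against FFD and with PM, 0 and 1 against chow, and 5 and 5 in the libraries labelled RageHepKO. At an unadjusted p of 0.05, 18 were higher and 8 lower against FFD, 19 and 8 against chow, 4 and 4 in FFD against chow and 10 and 18 with PM. Leaving out single libraries gave 0 to 2 higher and 0 to 2 lower against FFD, 0 to 2 and 1 to 8 against chow, 0 to 0 and 0 to 1 in FFD against chow, 0 to 3 and 0 to 9 with PM, and 7 to 12 and 6 to 15 in the libraries labelled RageHepKO. With the replicate number as a block, 0 members were higher and 0 lower in HiAD against chow, and Sult5a1 had an adjusted p of 0.0573; these samples share only a number. The libraries labelled RageHepKO and HiAD + PM share 1 number with each other and none with HiAD, so no other block could be fitted.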

Other observations

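Chow replicate 2 differed from the other chow livers in many members. Sult1a1 was at 257 FPKM there, against 96.5 and 74.1 FPKM in replicates 1 and 3, Sult1d1 at 177 FPKM, against 60.6 and 42.3 FPKM, and Sult1e1 at 8.07 FPKM, against 0.704 and 0.165 FPKM. In the other direction Sult2a8 was at 32.3 FPKM, against 188 and 164 FPKM, Ugt2b1 at 54.1 FPKM, against 214 and 225 FPKM, and Gsta4 at 0.509 FPKM, against 6.84 and 12.6 FPKM. Its male-biased genes summed to 1299 FPKM, against 4136 and 5102 FPKM. Of the female-biased genes Cyp17a1 was at 190.3 FPKM in it, against 13.9 and 7.76 FPKM in replicates 1 and 3, while Cyp2b9, Cyp2b13 and Cyp2a4 were listed at 0 in it. In 22 of the 52 tested members it was nearer to the mean of HiAD livers than to that of the other chow livers, against 13 for replicate 1 and 21 for replicate 3. Unlike the counts above, these cover all 52, with the 3 genes that passed the filter through HiAD livers alone.

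Replicate 19 labelled RageHepKO had the highest level of all libraries for Gstm1 (1012 FPKM), Gstt1 (204 FPKM), Mgst3 (20.3 FPKM), Gstp3 (16.9 FPKM) and Sult1c2 (5.76 FPKM), and Ugt2b38 was listed at 0 in it. Mitochondrial genes took 53.1% of its summed FPKM, the highest share of the 14 libraries.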
